A study of Drosophila melanogaster with 3 samples.

Results

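The strongest Schnurri-bound sites of the Drosophila melanogaster embryo are described here as 313 of the 3586 reproducible ChIP-seq peaks. They were chosen by their pooled signal, the peak height score given by the authors for the 3 replicates together, which had to be 350 or more. The pooled signal of these 313 peaks ran from 350 to 2020 with a median of 466, against a median of 135 and a highest value of 349 in the other 3273 peaks, called the rest of the list below. ChIP-seq was performed on whole embryos of mixed sex, aged 0 to 24 h, from one transgenic line that stably expresses Schnurri (shn) with GFP fused to its C-terminus. Sonicated chromatin of 200 to 800 bp was immunoprecipitated through the GFP tag, and 3 biological replicates from the same line form the only group. There is no untagged or untreated group to compare with, and the control that entered peak calling was not analysed here. Whole embryos over a full day of development mix all tissues and stages, so a peak height cannot be assigned to a cell type.

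Schnurri is a large zinc finger protein that acts downstream of the BMP ligand Dpp. With the Smad proteins Mad and Medea it forms a repressor complex on short silencer elements, and the best known gene that it silences is brk, itself a repressor of Dpp target genes. In the embryo it is required for dorsal patterning and for the closure of the dorsal epidermis.

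The sequence under the strongest sites is shown first, because one spaced element returned at them. Among 8192 distinct 7-base words counted on both strands within 100 bp of the summits, and found at 15 or more of the strongest peaks, 4 stood out by the ratio of the strongest peaks to the rest. GGGCGTA was found at 19 of the 313 peaks (6.07%) against 1.19% of the rest, and its neighbour CTACGCC, read on the other strand, at 23 (7.35%) against 1.56%. AACCCCC was also found at 19 peaks (6.07%), against 1.28% of the rest, and the overlapping ACCCCCT at 19 against 1.31%. The fifth word, at 16 peaks, had a ratio of 2.84, and these 4 had ratios of 4.62 to 5.09. The 4 words are pieces of CCCC and TACGCC, which stood on the same strand with 13 to 18 bases between them in 15 of the 313 windows of 150 bp to either side of the summit (4.79%, Wilson 95% interval 2.93 to 7.76) and in 12 of the 3273 windows of the rest (0.367%, 0.210 to 0.640). The words, the blocks and the range of gaps were chosen after these values were seen, from words of 5 lengths and 5 combinations of blocks, so the shares are a description and carry no test. Intervals on shares here and below cover counting error over peaks only, and peaks are not replicates.

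At the strongest peak of all, on 3L next to CG14100, the spaced pair stood on either side of the summit in opposite directions, and the same arrangement was found at CG4496. The stretches below are from the Release 6 (dm6) genome, plus strand, chr3L:19590525-19590696 and chr2L:7188503-7188738, and the capitals mark the 2 blocks of each pair (CCCC and TACGCC, or GGGG and GGCGTA where the pair is on the minus strand). The summits are at base 90 and base 135 of these stretches.
CG14100: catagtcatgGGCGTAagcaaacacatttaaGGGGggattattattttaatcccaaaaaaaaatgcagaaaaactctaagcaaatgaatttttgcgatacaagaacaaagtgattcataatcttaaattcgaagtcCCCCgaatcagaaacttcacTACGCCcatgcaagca
CG4496: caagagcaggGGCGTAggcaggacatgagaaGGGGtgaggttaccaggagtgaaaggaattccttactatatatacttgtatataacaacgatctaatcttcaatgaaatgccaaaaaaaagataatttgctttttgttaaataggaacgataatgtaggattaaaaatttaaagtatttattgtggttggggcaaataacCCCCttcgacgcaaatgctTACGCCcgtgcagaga

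The other strongest peaks whose pair lies clear of annotated UTR and coding sequence held a single copy. Each is written in the direction of its pair with 10 bases to either side, from chrX:2703936-2703979 (plus strand) for Ugalt, chr3L:5139539-5139583 (plus) for Tcs5, chr3L:3060851-3060896 (plus) for CG16753, chrX:4667060-4667102 (plus) for CG3009, chr3R:26714423-26714466 (plus) for amon, chr3L:9457704-9457749 (minus) for CG3552, chrX:19847000-19847045 (minus) for pico and chrX:523379-523424 (minus) for elav. Capitals mark CCCC and TACGCC.
Ugalt: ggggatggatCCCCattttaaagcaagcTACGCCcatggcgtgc
Tcs5: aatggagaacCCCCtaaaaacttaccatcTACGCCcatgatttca
CG16753: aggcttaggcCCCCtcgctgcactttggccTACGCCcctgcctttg
CG3009: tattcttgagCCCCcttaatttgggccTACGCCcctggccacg
amon: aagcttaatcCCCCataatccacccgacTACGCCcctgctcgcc
CG3552: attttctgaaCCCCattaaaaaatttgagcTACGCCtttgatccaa
pico: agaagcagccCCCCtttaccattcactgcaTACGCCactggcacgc
elav: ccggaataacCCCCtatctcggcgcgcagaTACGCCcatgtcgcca

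Read down these lines, the bases between the blocks differ, while TG stands 2 bases after TACGCC in each. All 17 distinct pairs at the 15 peaks were followed by any 2 bases and TG, as were 11 of 13 pairs at the rest of the list, against 107 of the 555 pairs on the 6 chromosome arms (19.3%). The direction of the pair was also shared: at 17 of 17 pairs the summit lay on the side of the CCCC block, with the middle of the pair 37 to 112 bp (median 67) from it. The TG was read off the pairs at these same peaks, so the shares and positions of the 10-base word are a description and carry no test. The 10-base word TACGCCNNTG alone, N being any base, was found within 150 bp of the summit at 25 of the 313 peaks (7.99%, 5.47 to 11.5) and at 53 of the 3273 others (1.62%, 1.24 to 2.11). For comparison it was in 0.530% of 19252 windows of the same length centred on protein-coding transcription start sites (TSSs), in 0.669% and 0.837% of windows 1000 bp before and after the reproducible summits, and in 0.636% of the 26414 pooled peaks outside the reproducible list. At the 25 peaks there were 27 such words, and all 27 had the summit on their upstream side, a median of 79 bp away.

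The word was most frequent at the head of the list. It was found at 3 of the first 15 peaks, 14 of the 85 ranked 16 to 100 (16.5%, 10.1 to 25.8), 7 of the 100 ranked 101 to 200 and 1 of the 113 ranked 201 to 313 (0.885%, 0.156 to 4.84), where its share was no higher than the 1.62% of the rest. In the replicates taken singly, it was near 7.35%, 7.99% and 7.35% of the first 313 peaks of replicates 1, 2 and 3, and near 1.77%, 1.65% and 1.41% of the peaks from there to 3586, so the 3 lists were close to each other. These lists come from the same reads as the pooled list. The word also occurred apart from binding, since of 2025 copies on the 6 arms 27 lay within 150 bp of one of the 313 summits, 82 near a reproducible summit and 252 near any pooled peak. A match is a description of the letters, and no factor is assigned to it.

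**Figure D1:**
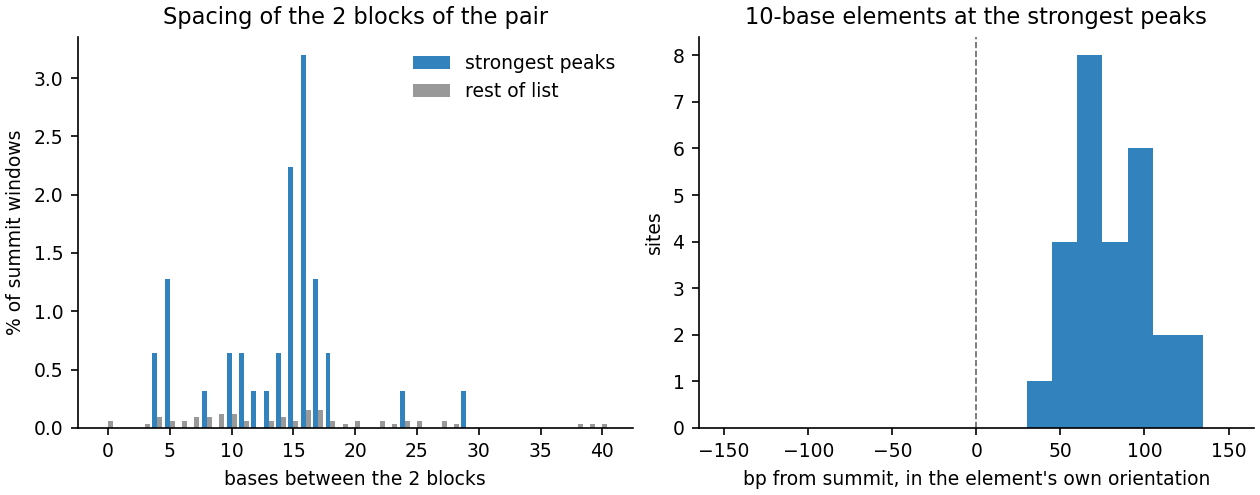
Left, the share of summit windows (150 bp to either side) with the 2 blocks of the pair at each number of bases between them (x axis, 0 to 40), for the 313 strongest peaks (blue) and the rest of the list (grey); the highest bar is at 16 bases, 3.19% against 0.153%, and a run of more than 4 Cs counts at several gaps. Right, the number of 10-base elements by distance from the summit in bp, in the element's own direction; all 27 lie to the right of 0.

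The gap of 16 bases between the blocks was the most frequent, at 10 of the 313 peaks (3.19%) against 5 of the rest (0.153%). Gaps of 15 and 17 bases were at 7 and 4 peaks (2.24% and 1.28%), against 0.0611% and 0.153% of the rest. Gaps of 4 and 5 bases were at 2 and 4 peaks (0.639% and 1.28%), against 0.0917% and 0.0611%. Gaps of 10 and 11 bases were at 2 peaks each (0.639%), against 0.122% and 0.0611%. A run of more than 4 Cs counts at several gaps, and the counts at these shorter gaps are too few to compare. The genes beside the pairs had no single function. Ugalt encodes the UDP-galactose transporter of the Golgi, amon a proprotein convertase of neuropeptide-producing cells, elav a neuronal RNA-binding protein, and several are known by number only.

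Known motifs did not mark the strongest peaks in this way. Of 12 motifs searched on both strands within 100 bp of the summit, the DRE (TATCGATA), bound by the promoter factor Dref, was at 9 of the 313 peaks (2.88%, 1.52 to 5.37), at 5.41% (4.68 to 6.24) of the rest and in 6.21% of 19253 protein-coding promoters of the same length, which run from 200 bases upstream to the TSS. In the first 313 peaks of each replicate list the DRE share was 2.56% in all 3, against 3.67%, 4.67% and 5.26% in the peaks from there to 3586. The mean difference was -1.98 ± 0.804 percentage points (SD, n = 3), lower in 3 of 3 replicates, with p = 0.25 in the two-sided exact sign-flip permutation test, the smallest p that 3 replicates allow. The core of motif 1 (GGTCACAC), bound by M1BP, was at 1.28% of the strongest peaks, 3.15% of the rest and 3.33% of promoters, and the GC-rich Mad site (GGCGCC) at 1.60%, 4.28% and 3.45%. The GAGA repeat (GAGAGAG) was at 4.47%, 5.19% and 6.19%, the AP-1 site (TGAGTCA) at 2.56%, 2.75% and 1.78%, the E-box CAGCTG at 11.2%, 11.2% and 12%, the GATA site (TGATAAG) at 3.51%, 4.86% and 5.48%, and the TATA box (TATAAA) at 30.7%, 26.8% and 33.6%. The CRE (TGACGTCA) was at 2 of the 313 peaks (0.639%) and 0.336% of the rest, the E-box CACGTG at 8 (2.56%) and 2.75%, and the Zelda site (CAGGTAG) at 4 (1.28%) and 1.07%. The Schnurri-Mad-Medea silencer element was at 1 of the 313 peaks (0.319%, 0.0564 to 1.79) and at 4 of the rest (0.122%, 0.0475 to 0.314). It was in 5 of the 19253 promoters (0.026%). These counts are too few to compare. No match says only that these letters are not in the window.

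Windows of 75 bp to either side of the summit are given as examples for 2 of the strongest peaks without the pair. They are at cbt (chr2L:481001-481151, plus strand) and at the shared start of Shc and Atat (chr3L:9426820-9426970, plus strand). Shc is not typical, since a DRE was within 100 bp of the summit at 9 of the 313 peaks and a GATA site at 11. Capitals mark motif matches, a TATA box at cbt and, from left to right at Shc, a TATA box, a GATA site and a DRE, TATA boxes being read on the minus strand.
cbt: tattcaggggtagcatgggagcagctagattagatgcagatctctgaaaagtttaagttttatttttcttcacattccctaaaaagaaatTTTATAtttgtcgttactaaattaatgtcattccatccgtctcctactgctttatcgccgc
Shc: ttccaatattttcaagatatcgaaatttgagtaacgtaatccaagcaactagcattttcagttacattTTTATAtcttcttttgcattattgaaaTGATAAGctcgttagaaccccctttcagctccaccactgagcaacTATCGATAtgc

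The strongest peaks were more often within 1 kb of a gene start than the rest. The summit was within 1 kb of a protein-coding TSS at 238 of the 313 peaks (76.0%, 71.0 to 80.4), against 65.1% of all reproducible summits and 64.1% (62.4 to 65.7) of the rest. The upper quartile of the distance was 938 bp against 2176 bp, while the lower quartile was 103 bp against 80 bp, and 60.7% against 48.6% were within 300 bp. Of the 238 proximal summits 79.0% were upstream of the TSS, with a median position 113 bp upstream, against 74.8% and 68.5 bp in the rest. At the far end, 25 peaks (7.99%) were over 5 kb from any TSS, against 14.5% of the rest.

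Location was compared within each replicate's own list, where the first 313 peaks were set against those from there to 3586. The proximal share was 79.9% against 58.0% in replicate 1, 78.0% against 62.8% in replicate 2 and 68.7% against 65.1% in replicate 3. The difference was 21.9, 15.2 and 3.58 percentage points, thus in one direction in 3 of 3 but over a wide range. The lists differed in strength, with 2385, 5289 and 7213 peaks at a −log10 q of 2 or more in replicates 1, 2 and 3, so in replicate 1 the comparison to rank 3586 reached below that level; its part in the differences was not tested. Its mean was 13.6 ± 9.27 (SD, n = 3), with p = 0.25 in the two-sided exact sign-flip permutation test, the smallest p that 3 replicates allow.

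Starts of 2 or more genes lay within 1 kb of the summit at 113 peaks (36.1%, 31 to 41.6), against 27.4% (25.9 to 29.0) of the rest, and at such peaks the signal cannot be assigned to one gene. Among summits within 1 kb of a TSS alone, the share was 47.5% (41.2 to 53.8) against 42.8% (40.7 to 44.9), a difference of 4.68 percentage points. Over all summits the difference was 8.67 points and depended on the replicates. It was 15.3, 7.47 and 2.51 in the lists of replicates 1, 2 and 3 (mean 8.43 ± 6.46, SD, n = 3; p = 0.25 in the exact sign-flip test). With the 313 peaks chosen anew by mean rank in 2 lists, it was 4.12 without replicate 1, 10.1 without replicate 2 and 13.6 without replicate 3.

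**Figure D2:**
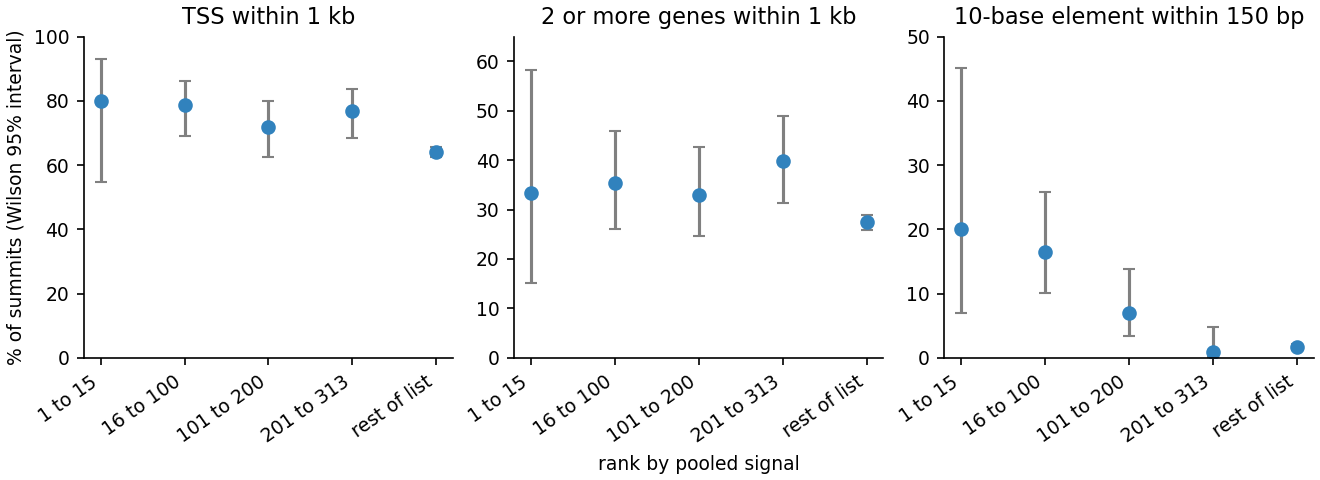
Share of summits (y axis, %, with Wilson 95% intervals) by rank in pooled signal (x axis) for TSSs within 1 kb, for TSSs of 2 or more genes within 1 kb, and for the 10-base element within 150 bp; the y axes differ. The proximal share lies between 72.0% and 80% in the 4 rank classes and at 64.1% in the rest, while the element lies at 20%, 16.5%, 7% and 0.885% in the 4 classes and at 1.62% in the rest.

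Among the 313 peaks themselves the proximal share did not order by rank, with 80%, 78.8%, 72.0% and 77.0% in ranks 1 to 15, 16 to 100, 101 to 200 and 201 to 313 and intervals that overlap. The summits were in introns or other gene body at 133 peaks, between genes at 130, in a 5′ UTR at 47, in coding sequence at 2 and in a 3′ UTR at 1. The matching shares were 42.5%, 41.5%, 15%, 0.639% and 0.319%, against 41.6%, 43.2%, 12.8%, 0.978% and 1.47% in the rest. The 5 large arms held 53 (3L) to 70 (3R) of the peaks and the small chromosome 4 held 2. Per megabase this was 2.68 on 2L and X, 2.45 on 2R, 2.18 on 3R, 1.89 on 3L and 1.48 on chromosome 4. As a share of the reproducible peaks of each arm, it was 7.33% (3L) to 9.68% (X) on the large arms and 2 of 14 on chromosome 4 (14.3%), which are too few to compare.

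Peak width could not be compared with the rest, because 2879 of the 3273 other peaks (88.0%) were listed at one width, 400 bp, as were 5 of the 313. Among the strongest peaks the median width was 379, 314, 265.5 and 215 bp in ranks 1 to 15, 16 to 100, 101 to 200 and 201 to 313. The median GC content within 100 bp of the summit was 37.3% against 38.3%. The authors' −log10 q value could not rank them, since all 313 carried the highest value in the list, 3.76, as did 2541 peaks of the rest. The threshold of 350 fell in a smooth slope. Just inside it lay the peaks at CG43389, slp2 and Elp5, each with a signal of 350, and just outside those at CG8188, mtd and E23, with 349, 349 and 348.

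**Figure D3:**
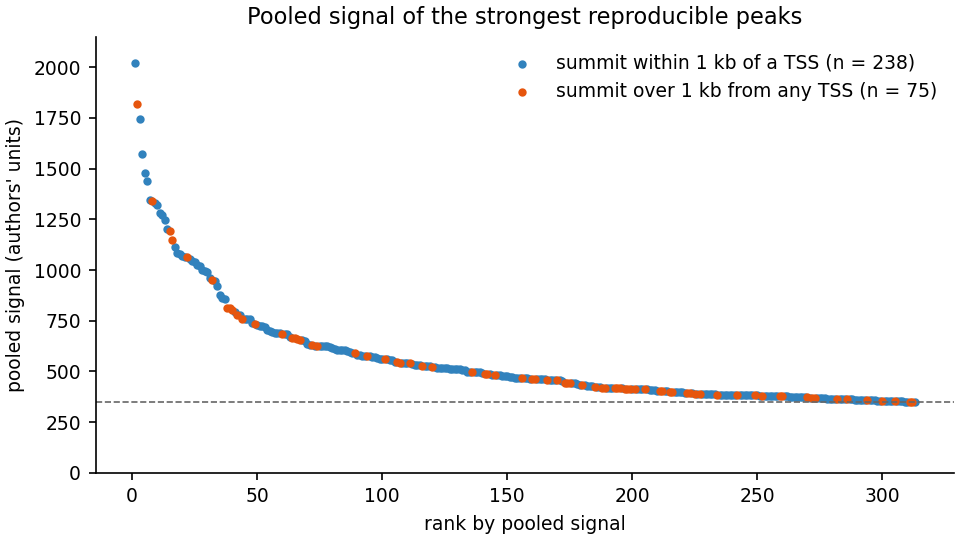
Pooled signal (y axis, the authors' units) against rank (x axis) for the 313 strongest reproducible peaks, with summits within 1 kb of a TSS in blue (238) and others in orange (75). The dashed line is the threshold of 350; the signal drops from 2020 to 1190 over the first 15 peaks and no step is seen at the threshold.

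Behind the first 15 peaks came a varied set of genes. The peaks ranked 16 to 40 had signals from 802 to 1148. Of the genes nearest to them, ph-p (rank 18, signal 1082) encodes a Polycomb protein, Rtnl1 (rank 21, 1066) a reticulon that shapes the endoplasmic reticulum, larp (rank 24, 1045) an RNA-binding protein, and Adf1 (rank 25, 1041) a transcription factor first found at the Adh gene. HmgZ (rank 26, 1026) encodes a high mobility group protein and eIF6 (rank 28) a factor needed to make the large ribosomal subunit. At mRpL41 (rank 17), Art3 with mRpS10 (rank 20) and CenG1A with mRpS23 (rank 23) a gene for a mitochondrial ribosomal protein had a start within 1 kb. The remaining genes nearest to ranks 16 to 40 were CG13323, GstE13, CG32772, CG9663, CG8360, CG5098, MFS10, tara, Tcs5, CG8320, CG9147, tank, CG6565, hll, CG4004 and Trl.

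The replicate ranks of these peaks were mostly close together. The peak at ph-p ranked 14, 25 and 25 in replicates 1, 2 and 3, and that at larp 34, 20 and 23. At hll, a distal peak 2919 bp upstream of the TSS, the ranks were 354, 48 and 10, and at CG6565 they were 17, 38 and 83. Peaks over 1 kb from any TSS were present to the top, the 5 strongest being those at cbt (1388 bp upstream), CG4004 (5121 bp downstream of the TSS), CG11050 (1019 bp downstream), CG13323 (11914 bp downstream) and CG32772 (1262 bp downstream). CG4004 and cbt each had a second strong peak under 1 kb away, of rank 39 and 48.

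The 313 peaks had 291 distinct nearest genes, 278 of them among the peaks after the first 15. Of the 291 genes 56 fell in a list of a functional class, 81 were known by a CG number only and 154 were in neither. There were 27 lists, counting that of the CG numbers. The share of peaks nearest to a gene with a CG number was 26.2% in the strongest peaks and 26.2% in the rest. By gene, the shares were 27.8% and, for genes nearest to the rest only, 29.2%, while such genes make up 43.7% of the 13945 protein-coding genes. The lists are partial, and each count below is a count for its list. For 8 lists no strong peak had a listed gene as its nearest. With 313 peaks, a count of 0 allows a share of up to 0.958% when 3 counts are taken as its limit. The share over all reproducible summits was below that limit for each of the 8, at 0.781% for bHLH transcription factors, 0.558% for respiratory chain and ATP synthase subunits, 0.307% for Mediator and general transcription factors, 0.223% for chemosensory receptors and odorant-binding proteins, 0.167% for aminoacyl-tRNA synthetases, 0.112% for cytochrome P450 enzymes and 0.0837% for proteasome subunits and for cuticle proteins. A difference from the rest was thus not detectable at this number of peaks. At 3 strong peaks nearest to another gene a gene of these lists also started within 1 kb, MED30 beside Rev1 (rank 129), ND-MWFE beside TppII (rank 143) and SerRS beside CG17260 (rank 250). The rest was not counted in this way. Homeodomain factors had 1 strong peak, at NK7.1 (rank 181), a share of 0.319% (0.0564 to 1.79) against 0.947% of the rest, which lies within that interval.

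Genes of the transcription factor lists, which are partial and do not hold Adf1, were nearest to 29 peaks (9.27%, 6.53 to 13), against 7.70% of the rest. By gene, they were 6.53% of genes nearest to a strong peak, 4.92% of those nearest to the rest only and 2.32% of protein-coding genes. These 29 summits stood at only 19 genes, 5 of them at shn, 3 at brk and 2 each at cbt, Trl, NFAT and slbo. Since shn is the tagged gene, its 5 summits may not be comparable with the others. They count toward the 9.27%, and a share without shn was not computed. The difference from the rest in share of peaks, 1.57 percentage points, was smaller than its spread between replicates. It was 0.607, 0.271 and 5.22 in replicates 1, 2 and 3 (mean 2.03 ± 2.76, SD, n = 3, with p = 0.25 in the exact sign-flip test). It was -0.33 with a signal threshold of 500, and with the peaks chosen anew it ran from 0.166 without replicate 2 to 2.97 without replicate 1.

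Within these lists the strongest peaks after the first 15 were at Trl (rank 40), which encodes GAGA factor, cbt again (rank 48), brk (rank 55), NFAT (rank 66) and jigr1 (rank 73). The list named for zinc finger factors had 11 summits at 5 of its genes, cbt, Trl, jigr1, chinmo and shn. Whether each listed gene encodes a zinc finger was not tested. The summit at chinmo, a BTB zinc finger gene of neuronal timing, was 12429 bp upstream (rank 107). The nuclear receptor genes Eip75B (rank 164), Hr4 (rank 227) and Hr3 (rank 242), all of the ecdysone response, had 1 strong summit each, that of Eip75B in its 5′ UTR and those of Hr4 and Hr3 9994 and 7940 bp downstream of the nearest TSS. Of the forkhead genes, CHES-1-like (rank 255) and slp2 (rank 312) had one, and of the bZIP genes slbo, the C/EBP of border cells, had 2 (ranks 222 and 272). Mad itself, the Smad partner of Schnurri, had a summit 679 bp upstream at rank 236.

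Ets21C, an ETS factor gene, and brk ranked far lower in replicate 1 than in replicate 3, as some other peaks did. The summit in the Ets21C 5′ UTR ranked 125 in the pooled list and 4935, 156 and 36 in replicates 1, 2 and 3. At brk the summit 195 bp upstream ranked 1731, 61 and 12, and those 6868 and 8100 bp upstream ranked 1297, 415 and 60 and 3340, 570 and 46. All 4 summits were thus far down the list in replicate 1 and near its top in replicate 3, with replicate 2 between. The GC content of their windows was 59.7% at Ets21C and 56.2% to 58.7% at brk, against the median of 37.3%. Its part in these ranks was not tested.

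Genes for cytoplasmic ribosomal proteins were nearest to 11 peaks (3.51%, 1.97 to 6.18), against 1.44% of the rest. By gene, they were 3.78% of genes nearest to a strong peak, 1.98% of those nearest to the rest only and 0.667% of protein-coding genes. The 11 genes were RpS27 (rank 43), RpL7 (47), RpL23A (85), RpL14 (126), RpL34b (131), RpL32 (196), RpL22 (204), RpS25 (229), RpL41 (256), RpL13A (296) and RpL28 (307). All 11 summits lay at the start of the gene, from 113 bp upstream to 21 bp downstream of the TSS, and at 9 of them another gene started within 1 kb.

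This class also leaned to replicate 3. RpS27 ranked 153, 44 and 28 in replicates 1, 2 and 3, RpL7 193, 59 and 19, and RpL22 1023, 210 and 103. All 11 ranked better in replicate 3 than in replicate 1, as 136 of the 313 did, and their median ranks were 544, 210 and 106. Their median GC content was 44.3%, and its part in the ranks was not tested. The difference from the rest in share of peaks was 0.848, 2.20 and 4.73 percentage points in replicates 1, 2 and 3 (mean 2.59 ± 1.97, SD, n = 3, with p = 0.25 in the exact sign-flip test). With the peaks chosen anew it was 3.48 without replicate 1, 0.678 without replicate 2 and 0.328 without replicate 3.

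Mitochondrial ribosomal protein genes were nearest at 2 peaks, mRpL41 (rank 17) and mRpL23 (rank 117), a share of 0.639% (0.175 to 2.30) against 0.397% of the rest. Translation factor genes were nearest at 3, eIF6 (rank 28) and 2 at eEF1gamma (ranks 74 and 281), a share of 0.958% (0.326 to 2.78) against 0.397%. Counted by any listed start within 1 kb of the summit, there were 4 peaks for each of these lists. The rest was not counted by that wider measure for these lists, so its shares by nearest gene cannot be set beside the wider counts. Of the listed heat shock genes Hsp83, the Hsp90 gene, had one (0.319% of the peaks against 0.214% of the rest), with ranks of 1432, 308 and 71 in the 3 replicates. Vesicle coat genes were nearest at 2, AP-2alpha (rank 152) and deltaCOP (rank 224), a share of 0.639% against 0.764% of the rest. They started within 1 kb at 5, a count that was again not made for the rest. Small GTPase genes were nearest at 2 peaks, Mtl (rank 264) and RhoGAP93B (rank 267), a share of 0.639% against 1.07%. Genes of the nuclear pore, splicing and ubiquitin lists were nearest at 1 peak each (0.319%), Nup98-96 (rank 206), mub (rank 41) and rdx (rank 140), against 0.122%, 0.672% and 0.611% of the rest.

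Genes of the kinase and phosphatase list were nearest to 10 peaks (3.19%, 1.74 to 5.78), close to the 2.87% of the rest. The list is partial and leaves out such genes as Nuak, Ire1 and Csk, which also had strong peaks, so 10 is a count for the list and not for all kinase genes. The listed genes were Lk6 (rank 5), gish (46), Raf (64, 124, 156 and 259), Tlk (89), sgg (115), InR (200) and Src64B (294). Lk6 encodes a kinase of the translation factor eIF4E, gish a casein kinase, sgg the fly GSK3 and InR the insulin receptor. Chromatin protein genes were nearest to 5 peaks (1.60%; 1.65% of the rest). These were Chro (rank 4), ph-p (18), osa (44), upSET (211) and JIL-1 (282), of which osa, a subunit of the SWI/SNF remodeller, had its summit 13948 bp downstream of the nearest TSS within the gene. The cell cycle genes CycB (rank 49) and CycY had 1 each, a share of 0.639% for that list against 0.550% of the rest.

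The strongest peaks had a near neighbour somewhat more often than the rest. The median distance to the nearest other reproducible summit was 4063 bp against 5301 bp, a ratio of 0.766. Within each replicate's list the ratio was 0.644, 0.658 and 0.743 (mean 0.682 ± 0.0533, SD, n = 3; below 1 in 3 of 3; p = 0.25, exact sign-flip test on the log ratios). Another summit lay within 1 kb of 20.1% of the strongest peaks and 15.5% of the rest, and within 5 kb of 56.9% and 48.9%. Another of the 313 lay within 1 kb of 10 of them, within 5 kb of 45 and within 20 kb of 68. Of the 63 with any other reproducible summit within 1 kb this was 15.9%, and of the 178 within 5 kb it was 25.3%, while the 313 make up 8.73% of all reproducible peaks. The 10 within 1 kb include 2 pairs of peaks that overlap each other, at Drat and at nrv1. The 45 within 5 kb also include peaks at shn, the tagged gene. Shares without these peaks were not computed, so the values do not show that strong peaks lie beside each other more often. The median distance to the nearest other of the 313 was 111431 bp. An even spread over the arms would give a mean spacing of 427734 bp between neighbouring peaks. A median of nearest distances and a mean spacing are unlike measures, so the gap between these values does not show how far the peaks cluster.

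Strong peaks gathered in 6 runs of 3 or more, each summit within 20 kb of the next, with 22 peaks in all. The largest had 6 summits over 28013 bp, 5 of them at shn itself (ranks 160, 174, 175, 180 and 270) and the last at CG7737 (rank 54), among 16 reproducible summits in the same stretch. The tagged line carries a shn fusion, and what that construct spans is not given in the sources used here; its part in the peaks at shn was not tested. The summit of rank 270 had no match in replicate 3 and ranked 261 and 184 in replicates 1 and 2.

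The tightest runs were at single genes. Raf, the kinase of the Ras pathway, held 4 strong summits within 7790 bp, from 875 to 8665 bp downstream of the nearest TSS. The one of rank 64 ranked 96, 64 and 66 in the 3 replicates and the one of rank 156 ranked 389, 99 and 179. The 3 summits upstream of brk spanned 7905 bp. The other 3 runs crossed several genes, CG31668 with papi and sau over 24058 bp, CG3792 with CG8892 and Rtnl1 over 20409 bp, and CG12769 with lig and slv over 21281 bp. In all, 16 genes were nearest to 2 or more of the peaks. In 2 cases, at Drat and at nrv1, a pair of the 313 peaks overlapped, with summits 203 and 199 bp apart; at nrv1 both took the same replicate matches, and at Drat both took the same match in replicate 3.

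The pooled signal was made from the same replicates, so the replicate ranks show how each one contributed and are no separate evidence. All but 6 of the 313 peaks, 307 (98.1%), were among the first 3586 peaks of all 3 replicate lists, where 53.8% of all reproducible peaks were. Among the first 313 peaks of all 3 lists were 179 (57.2%, 51.7 to 62.6). The lists of replicates 1, 2 and 3 singly held 245, 273 and 249 of them in their first 313. With a match that needed 0.5 of each peak's length, the share in all 3 was 46.3%.

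The typical rank was alike in the 3 lists and the tails were not. The median rank was 160, 155.5 and 167.5 in replicates 1, 2 and 3, and the worst was 4935, 570 and 980. Beyond rank 1000 were 7 peaks in replicate 1 and 0 in replicates 2 and 3. The ranks of a peak in 2 lists differed by a median of 1.50 times between replicates 1 and 2, 1.47 times between 2 and 3 and 1.82 times between 1 and 3. Spearman's correlation of the ranks across peaks, which share reads with the pooled list and are not independent, was 0.699, 0.660 and 0.397 for the same pairs, against 0.626, 0.524 and 0.344 in the rest.

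A few peaks had no replicate match. Replicate 1 had none for the peaks at Cals (rank 120) and lgs (rank 161), the 2 of the 313 that lie on chromosome 4, nor for one of the 2 at Drat (rank 128) and that at yps (rank 275). The peak at Cals, a calsyntenin gene, ranked 112 and 155 in replicates 2 and 3, and that at lgs, whose product is a cofactor of Wnt signalling, ranked 178 and 88. The Drat peak of rank 128 also lacked a match in replicate 2, and the shn peak of rank 270 in replicate 3.

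**Figure D4:**
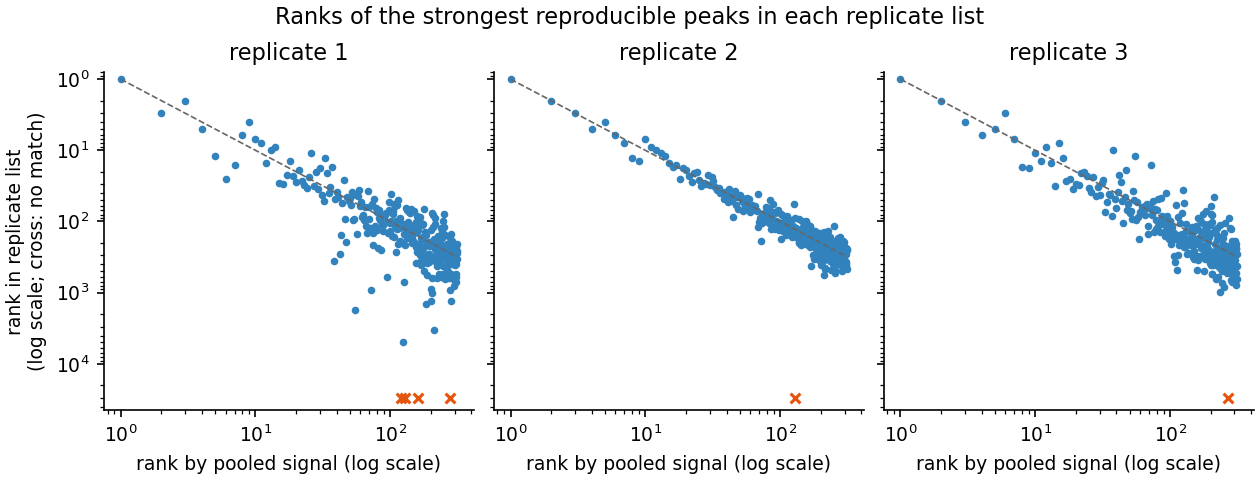
Rank in each replicate list (y axis, log scale, best at the top) against rank by pooled signal (x axis, log scale) for the 313 peaks; the dashed line marks equal ranks and crosses mark peaks with no match (4, 1 and 1). Points fan out downward in replicate 1, to 4935, and keep closest to the line in replicate 2, where the worst is 570.

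Peaks that ranked over 3 times better in one of replicates 1 and 3 than in the other lay at different places. This split was chosen after the ranks were seen, with a peak that had no match placed last. There were 39 peaks better in replicate 3, including the 4 with no match in replicate 1, and 38 better in replicate 1, including the shn peak with no match in replicate 3. Their median ranks were 607, 188 and 80 in replicates 1, 2 and 3 for the first set and 73.5, 169 and 334 for the second. Of the 38 better in replicate 1, 35 (92.1%) were within 1 kb of a TSS and 22 (57.9%) had starts of 2 or more genes there. Of the 39 better in replicate 3, 26 (66.7%) and 9 (23.1%) did, and 8 were at cytoplasmic ribosomal protein genes against 0 of the 38. The median GC content of the windows was 42.3% in the set better in replicate 3, 34.1% in the set better in replicate 1 and 36.8% in the other 236. Its part in the split was not tested.

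**Figure D5:**
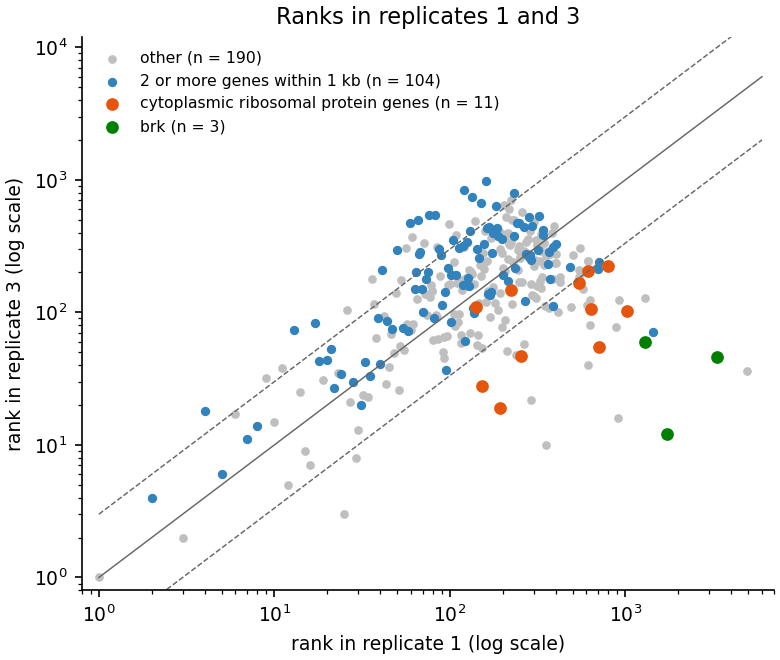
Rank in replicate 3 (y axis, log scale) against rank in replicate 1 (x axis, log scale) for the 308 peaks matched in both, coloured by gene group; the solid line marks equal ranks and the dashed lines a ratio of 3. The 11 ribosomal protein peaks (orange) and the 3 brk peaks (green) all lie below the solid line, while many peaks with 2 or more gene starts (blue) lie above the upper dashed line.

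Examples of the second set were the peaks at spi, which encodes the EGFR ligand Spitz, with ranks of 61, 87 and 369 in the 3 replicates, at PTPMT1, a mitochondrial phosphatase gene (59, 85 and 473), and at Lon, a mitochondrial protease gene (50, 139 and 293). The worst ranks in replicate 3 were at Sptz (980), CG17260 (835), Pax (789), Liprin-beta (739) and by (704), the last encoding tensin and Pax paxillin, both of integrin adhesions. In replicate 2 they were at brk (570), RpL41 (533), CG32075 (490), Dus2 (486) and CG13501 (481). In replicate 1 they were at Ets21C (4935), at 2 of the brk summits (3340 and 1731), at Hsp83 (1432) and at eEF1gamma (1300, for the peak of pooled rank 281), with the third brk summit next (1297). The spaced pair described above was at 1 of the 38, at 0 of the 39 and at 14 of the other 236 peaks.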

How the data were processed

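Peaks were used as the authors deposited them on dm6, one list of 30000 regions per replicate, one for the pooled replicates and one of 3586 peaks kept by the irreproducible discovery rate (IDR) procedure. For every peak the authors deposited its signal, its −log10 q and its summit. Which program called the peaks, and at what IDR threshold, is not given in the sources used here. No read counts were used, so depth is unknown. Signal served only to rank or select peaks within one list. Peaks were read with pandas 2.3.3, numpy 2.4.6 and scipy 1.17.1 in Python 3.11.15, and figures were drawn with matplotlib 3.10.9. Coordinates are 1-based. Genes came from Ensembl release 115 (BDGP 6.54) and sequence from the Release 6 RefSeq assembly; every dm6 peak lay within its arm.

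Peaks matched when they overlapped by 1 bp or more, and the best rank was taken. Distances run from the summit to the nearest protein-coding TSS. The members, the gene lists, motifs and comparisons were chosen with earlier results of these data known; 675 of 700 listed gene symbols were found. The text names the nearest gene of ranks 16 to 40, the 3 strongest of each class, the 5 strongest distal peaks, runs, the worst or missing replicate ranks and the threshold's neighbours; other genes named were chosen after their values were seen. Wilson intervals are at 95%. Steps were tested on simulated data. Alternatives were thresholds of 250 and 500, other TSS and motif windows, all annotated genes, stricter overlap, dm3 lists and leaving out each replicate.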

Additional observations from a re-analysis of the deposited data

How the results depend on the processing

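The 8 results were recomputed under 54 alternatives in all. In 44 the value moved by less than the spread between replicates (for the top-list share, by less than its interval) or kept its side of a test that 3 replicates cannot pass. The transcription factor difference was -0.329 percentage points with a signal threshold of 500, the only change of direction. The DRE difference was -1.72 and -1.48 percentage points with thresholds of 250 and 500 and -1.49 in a window of 50 bp. The share of peaks in all 3 top lists was 46.3% with 0.5 of each length overlapping. The cause of these moves was not tested. Leaving out each replicate in turn gave a range of 60.4% to 71.2% for that share in the other 2 lists, 0.525 to 0.638 for the ratio of median distances, 9.14 to 16.8 points for the promoter-proximal difference, 9.38 to 18.5 for that within replicates, 4.12 to 13.6 for shared promoters, 0.166 to 2.97 for transcription factors, 0.328 to 3.48 for ribosomal proteins and -2.88 to -1.83 for the DRE. The peaks chosen anew by mean rank in 2 lists held 261 to 273 of the 313. Where peaks were chosen anew, the choice changed from pooled signal to mean rank as a replicate was left out. The 2 changes cannot be told apart. The whole range of the ratio of median distances lay below the 0.766 of the main choice. No paired analysis was possible because the 3 replicates form 1 group, so no replicate number is shared between groups; the replicate differences compare 2 stretches of the same list. Depth is unknown, and with no control group analysed a peak's height carries no error of its own.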
